A study of Caenorhabditis elegans with 20 samples.

Results

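The comparison described here set gonadal cells of *C. elegans* males against cells of whole males after 15 hr of feeding, toward the end of the first larval stage, when the somatic gonadal precursors (SGPs) Z1 and Z4 have divided. For each of the 19861 named genes in the deposited table of this time point, the log2 ratio of gonadal FPKM + 1 to whole-animal FPKM + 1 was recomputed, FPKM being fragments mapped to a gene relative to the length of its transcript and the size of the library. The ratio was kept for genes with at least 5 FPKM in the higher group, which left 11881 genes (59.8%). Genes with a ratio of 2 or more are called gonad-enriched and those with a ratio of -2 or less gonad-depleted, a 4-fold difference in either direction on this scale.

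The series holds 20 samples in 8 groups, of which the comparison used 4 samples, 2 of male gonadal cells and 2 of whole males. Both groups came from the strain DZ683, which carries *tra-2(ar221)* II, a temperature-sensitive allele of a sex determination gene, *xol-1(y9)* X, and the integrated array *rdIs4*, an *ehn-3a* promoter fused to the fluorescent protein Venus that marks the Z1/Z4 lineage. The animals were therefore XX pseudomales raised at the restrictive temperature and not XO males. Gonadal cells, called Z1/Z4 daughters below, were sorted as Venus-positive and propidium iodide-negative cells from dissociated larvae, and whole males were the dissociated suspension before sorting, so they include the gonadal cells themselves. Hermaphrodites of the same age, used for comparison, were DZ685 (*xol-1(y9)* X and *rdIs4*), also as 2 samples of each kind, and males of the same DZ683 strain after 9.5 hr of feeding were 3 samples of each kind.

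Each group had 1 FPKM value per gene, pooled over its samples by the authors. The paper reports high rank correlations between replicates of these groups, but the spread of single genes between samples is not known. The depth behind each value is unknown, and no difference below carries a test or an error. As a yardstick, the same ratio was taken between whole males and whole hermaphrodites at 15 hr, 2 groups of like tissue. Among 11824 genes past the same floor its absolute value had a median of 0.17 and a 95th percentile of 0.93, and 73 genes (0.617%) passed 2. Between male gonadal cells and whole males the median absolute ratio was 1.07. The yardstick was widest for weakly expressed genes, where 1.53% of 3405 genes between 5 and 20 FPKM passed 2, against 0.198% of 2023 genes at 100 FPKM or more. In bulk RNA of this kind, fewer cells of a type and less RNA per cell cannot be told apart.

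The somatic gonad of *C. elegans* descends from Z1 and Z4 alone. Their first division is asymmetric and depends on a Wnt/β-catenin asymmetry pathway, in which the transcription factor POP-1 and the β-catenin SYS-1 are distributed unequally to the daughters. In males the daughters take up different positions. The cells of this lineage include the linker cell, which leads gonad elongation, the seminal vesicle and the vas deferens. In hermaphrodites the same lineage gives, among others, the anchor cell, sheath, spermatheca and uterus.

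Of the 11881 genes, 413 (3.48%) were gonad-enriched and 2268 (19.1%) gonad-depleted, a depleted-to-enriched ratio of 5.49. The distribution was lopsided in shape and not in its centre: 6290 genes (52.9%) were higher in gonadal cells, the median ratio was 0.12, and the lower and upper quartiles were -1.70 and 0.82. The median FPKM of enriched genes was 35.9 in gonadal cells and 3.67 in whole males, and that of depleted genes 3.89 and 29.5. An exact 0 can be a failed estimate in such tables, and 27 enriched genes were listed at 0 in whole males and 78 depleted genes at 0 in gonadal cells; no fold is given for these. The values next to the threshold were 2.002 for F56H11.6 (8.75 and 1.43 FPKM) on the enriched side, with *try-3* just outside it at 1.999, and -2.0003 for T02G6.2 on the depleted side, with *nas-6* just outside it at -1.9998. The gonadal values summed to 784031 FPKM and the whole-male values to 697009, and scaling both to the same total shifted the ratios by a median of -0.17.

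**Figure D1:**
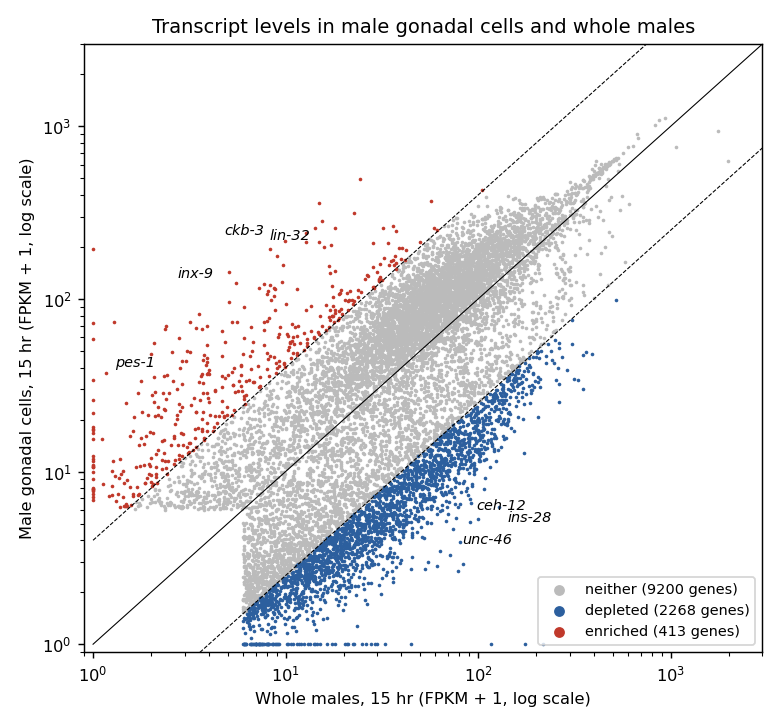
FPKM + 1 in whole males (x axis) and in male gonadal cells (y axis) at 15 hr for the 11881 genes past 5 FPKM, both axes on a log scale, 1 pooled value per group. The solid line marks equal values and the dashed lines a ratio of 4 either way; 413 enriched genes lie above the upper dashed line and 2268 depleted genes below the lower one, and points on the axes are genes listed at 0 in 1 group.

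The genes of the strain were read first, as a description. They cannot check the labels, since *xol-1* read alike in all groups of this age and *ehn-3* was under the floor. *xol-1*, the X-linked switch gene of sex determination that is mutated in both strains, was listed at 0 FPKM in male gonadal cells and whole males, and in both hermaphrodite groups of the same age. *tra-2*, whose ar221 allele is temperature-sensitive, had 86 FPKM in gonadal cells and 34.6 in whole males (ratio 1.29). *ehn-3*, the zinc finger gene whose promoter drives Venus, was low by 15 hr, at 2.08 FPKM in gonadal cells and 0.261 in whole males, under the floor, while at 9.5 hr males had 10.7 and 0.76. *unc-119*, a gene of neurons that is often used as a marker in transgenic arrays, had 323 and 428 FPKM (ratio -0.40).

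A list of 24 regulators of the somatic gonad was chosen with earlier results of these data known, so its shares are no independent evidence. Of the 24 genes 22 passed the floor, and 20 of these were higher in gonadal cells. Among the 22 genes, 5 were gonad-enriched (22.7%, against 3.48% of all genes past the floor) and 1 was depleted (4.55%, against 19.1%). Their median ratio was 1.39, against 0.12 over all genes past the floor. The highest was *ckb-3*, a choline kinase gene on chromosome III (4370857 to 4372792 in ce10), with 217 FPKM in gonadal cells and 8.98 in whole males (4.45). *fkh-6*, a forkhead factor needed for early gonadogenesis in both sexes, had 72.8 and 4.62 FPKM (3.72), and *ceh-22*, an NK-2 homeodomain factor that also acts in the pharynx, 154 and 15.9 FPKM (3.20). The other called genes were *gem-4*, a copine (84.9 and 17 FPKM, 2.25), and *dsh-2*, a Dishevelled protein of the Wnt pathway (156 and 33.6 FPKM, 2.19).

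Just under the threshold were *egl-43* and genes that set how and when the SGPs divide. *egl-43*, a zinc finger factor of the gonad, had 207 FPKM in gonadal cells against 53.0 (1.95), the cyclin D gene *cyd-1* 54.4 against 13.8 (1.91), *gon-2*, a TRPM cation channel needed for the SGP divisions, 229 against 61.7 (1.87), and *sys-1*, the β-catenin of the asymmetry pathway, 65.4 against 18.6 (1.76). *gon-4* (1.54), the Notch ligand gene *lag-2* (1.43), the zinc finger gene *lin-26* (1.34), the nuclear receptor gene *nhr-25* (1.17), the Notch receptor gene *lin-12* (1.17) and *gon-14* (1.16) were at least 2-fold higher in gonadal cells. *tra-1*, the Gli-type factor that ends the sex determination cascade, stood at 203 and 104 FPKM (0.96).

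A group of regulators was present in gonadal cells at levels close to the whole animal. *hlh-2*, the E/Daughterless protein (127 and 69.8 FPKM, 0.85), the Hox gene *egl-5* (102 and 72.5, 0.49), the bHLH gene *hlh-3* (39.9 and 30.2, 0.39) and *pop-1* (167 and 132, 0.33) were all expressed above 30 FPKM without a call. At the other end, *gon-1*, a secreted ADAMTS protease of gonad elongation, had 15.9 FPKM in gonadal cells and 65.1 in whole males (-1.97), and the forkhead gene *unc-130* 4.32 and 31.3 (-2.60). *hnd-1*, a bHLH factor that acts in the embryonic SGPs, was listed at 0 in gonadal cells and at 0.85 FPKM in whole males.

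**Figure D2:**
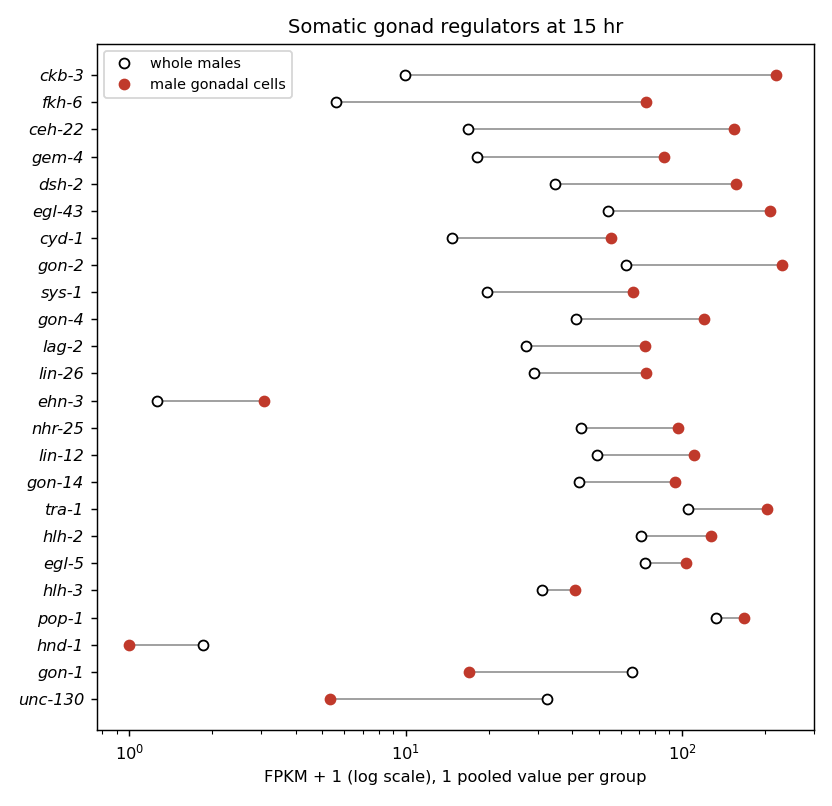
FPKM + 1 (log scale) of the 24 somatic gonad regulators in whole males (open circles) and male gonadal cells (filled circles) at 15 hr, 1 pooled value per group, ordered by ratio. Filled circles lie to the right for all but *hnd-1*, *gon-1* and *unc-130*, and the widest gap is that of *ckb-3*, from 8.98 to 217 FPKM.

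Promoter fragments of 10 genes were fused to a fluorescent reporter in the study. It took genes with SGP-enriched mRNA, without naming the samples behind that choice, so their values are no independent evidence of their direction. Of the 9 found in the table all were higher in gonadal cells, and 5 were called. *pes-1*, a forkhead gene on chromosome IV (5002744 to 5005339), had 36.3 FPKM in gonadal cells and 0.172 in whole males (4.99), the highest ratio among forkhead genes. Besides *ckb-3*, the other called genes were K03B8.8 on chromosome V (19.1 and 2.7 FPKM, 2.44), the homeobox gene *ceh-8* (79.2 and 16.5, 2.2) and *xtr-2* on chromosome X (17.2 and 3.26, 2.09). *sdz-1* (1.62), F52D2.7 (1.48), R11A5.3 (1.45) and T13F3.8 (1.11) were not called. In the paper the reporters of *xtr-2*, T13F3.8 and *pho-10* were not seen in the SGPs, whereas the others were. The paper proposes that these 3 may have lacked regulatory elements or might have been false positives. The primers that bound the fragments of 4 called genes are shown because they fix which stretch of each locus was tested; capitals mark the gene-specific part and lower-case letters the cloning tail.
pes-1 forward: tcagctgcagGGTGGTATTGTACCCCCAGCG
pes-1 reverse: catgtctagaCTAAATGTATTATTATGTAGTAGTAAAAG
ckb-3 forward: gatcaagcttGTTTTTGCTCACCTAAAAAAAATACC
ckb-3 reverse: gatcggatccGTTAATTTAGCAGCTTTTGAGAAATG
K03B8.8 forward: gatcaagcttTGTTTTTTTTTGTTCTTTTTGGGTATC
K03B8.8 reverse: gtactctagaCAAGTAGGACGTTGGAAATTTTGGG
xtr-2 forward: gatcaagcttGGTGGCCGCTAGCAGTCTGG
xtr-2 reverse: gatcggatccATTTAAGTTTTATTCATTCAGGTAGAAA

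The 15 highest ratios over the whole table belonged mostly to genes that had only a sequence name. W05G11.6, which carries the symbol *pck-1* in the current annotation, headed the list through a value of 0 in whole males that the table itself marks as a failed estimate. It had 193 FPKM in gonadal cells, and whole hermaphrodites of the same age had 291 FPKM, so the male ratio is not interpretable. T06G6.5 (71.4 FPKM), F14F8.14 (58), F13A2.5 (32.8) and F12E12.6 (25.15) were also listed at 0 in whole males, without such a mark. Of the genes measured above 0 on both sides, C02B4.3 on the X chromosome (12658405 to 12660991) was highest, with 72.1 FPKM in gonadal cells and 0.283 in whole males (5.83), followed by *pes-1*, T24D5.3 (69.1 and 1.4, 4.87), K09C4.9 (66.3 and 1.36, 4.83), Y59E1B.1 (142 and 4.06, 4.82) and C49F5.5 (54.3 and 1.07, 4.74). C50H2.6, now named *ceh-75* (47.3 and 0.995 FPKM, 4.60), Y59E1B.2 (357 and 13.9, 4.59), F13A2.2 (193 and 7.32, 4.55) and T22C8.4 (80.6 and 2.54, 4.53) completed the 15. Of the 15 lowest ratios, 12 belonged to genes listed at 0 in gonadal cells. Among these Y38H6A.5 had 217 FPKM in whole males, D2007.3 175, C53A5.14 116, M163.9 43.9 and Y17G9B.2 31.7, and *nspa-10*, F12F6.10, F58B4.2, F39E9.14, F53B1.9, *cnc-11* and F15A8.4 had between 21.4 and 28.7. The 3 genes measured above 0 on both sides were F32E10.8 (1.67 and 78.1 FPKM, -4.89), *fipr-10* (1.90 and 82.3, -4.84) and F55A4.3 (2.27 and 70.7, -4.46). Sequence-only names made up 67.6% of enriched genes, 61.1% of depleted genes and 58.8% of all genes past the floor.

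Enriched genes often lay next to each other. Of 412 enriched genes with a locus of at most 100 kb, 144 (35.0%) had a further enriched gene within 10 kb, while 9.69% of the 9104 genes called in neither direction had an enriched gene that close. Depleted genes did so in 57.0% of cases, against 37.0% of uncalled genes with a depleted gene that close. Runs of 3 or more enriched genes numbered 18, of which 6 were on chromosome II. One stretch of that chromosome held *sdz-12*, F12E12.6, F12E12.2, F12E12.11 and F12E12.12 between 3730155 and 3745913 and, beyond it, T24E12.12, T24E12.9, T24E12.10, T24E12.3 and T24E12.11 between 3759712 and 3779558, each with 1 gene listed at 0 in whole males, F12E12.6 and T24E12.12. Over the other 4 genes of each run the median ratios were 3.23 and 3.56. In the second run these 4 genes had 27.9 to 72.1 FPKM in gonadal cells and 1.10 to 4.27 in whole males. Other runs were F32D1.8, F13A2.1, F13A2.2 and F13A2.9 on chromosome V (median 3.91), C50H2.4 to C50H2.7 on the same chromosome (median 3.39) and F14H12.6 to F14H12.8 on the X (median 3.63). Reads of near-identical neighbours can be split between copies by the counting, and how far this holds for these runs was not tested.

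A large and even group of genes higher in Z1/Z4 daughters was the machinery of DNA replication. All 24 measured members past the floor were higher in gonadal cells, 23 of them at least 2-fold, with a median ratio of 1.70. Yet only 2 passed the threshold of 2 (8.33%, against 3.48% of all genes). These were *mcm-2*, a subunit of the replicative helicase (256 FPKM in gonadal cells and 57.7 in whole males, 2.13), and *cdt-1*, its loading factor (73 and 16.9, 2.05). The other helicase subunits *mcm-3*, *mcm-4*, *mcm-5*, *mcm-6* and *mcm-7* had ratios between 1.76 and 1.96. Genes of mitosis and chromosome segregation were alike: 65 of 67 were higher in gonadal cells, 54 at least 2-fold, with a median of 1.47. Of these, 3 were called (4.48%, near the 3.48% of all genes). *cdk-2*, a kinase of S-phase entry, had 74.2 and 15.9 FPKM (2.15), *scc-1*, the mitotic cohesin kleisin, 161 and 36.4 (2.11), and *hcp-6*, a condensin subunit, 212 and 48.8 (2.1).

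The nucleus and the protein synthesis apparatus followed. All 22 nuclear pore genes were higher in gonadal cells, from 0.45 for *npp-20* to 1.89 for *npp-12*, with a median of 1.47, and none was called. Nucleolar and ribosome assembly genes had a median of 1.08 (14 of 14 higher), aminoacyl-tRNA synthetases 0.95 (28 of 29), chromatin regulators 0.89 (35 of 36), translation factors 0.63 (20 of 23) and proteasome subunits 0.57 (31 of 31). The exception among synthetases was *nrs-2*, an asparaginyl-tRNA synthetase paralog, with 14 FPKM in gonadal cells and 70.4 in whole males (-2.25). Of 76 cytosolic ribosomal protein genes all 76 were higher, in a band from 0.25 to 0.48 around a median of 0.34. That median became 0.17 with equal totals and 0.06, with 72 of 76 higher, at equal upper quartiles. In hermaphrodites at 15 hr the median of the same genes was -0.37, and in males at 9.5 hr it was 0.11.

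Ribosomal protein genes also headed the absolute levels. Of the 10 highest FPKM values in gonadal cells, 7 were ribosomal protein genes, led by *rpl-29* (1114 and 933 FPKM), *rps-28* (1093 and 873) and *rpl-39* (1011 and 834), with *rpl-13*, *rpl-38*, *rps-29* and *rpl-41* between 696 and 860 FPKM, and an 8th was the histone H4 gene *his-1* (898 and 667). The last pair, T07A5.5, now named *ostf-4* (938 and 1751), and Y39A3CL.3 (760 and 1065), were lower in gonadal cells. Respiratory chain genes had no common direction that held, since 19 of 30 were higher with a median of 0.12, which turned to -0.053 with equal totals.

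Histone genes had a median of 0.47 (32 of 39 higher), and 4 were called enriched (10.3%, against 3.48% of all genes). The median of the list was -0.10 in hermaphrodites at 15 hr and -0.97 in males at 9.5 hr. *his-38*, an H4 gene, had 427 and 103.19 FPKM (2.04), *his-42*, an H3 family gene, 25.15 and 2.59 (2.86), and the linker histone gene *hil-6* 16.7 and 2.38 (2.39), while *his-56* had 6.90 FPKM against a listed 0. A further linker histone gene, *hil-4*, was depleted (7.25 and 36.9, -2.2). Core histone genes are near-identical copies, so the split of reads among them is uncertain.

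**Figure D3:**
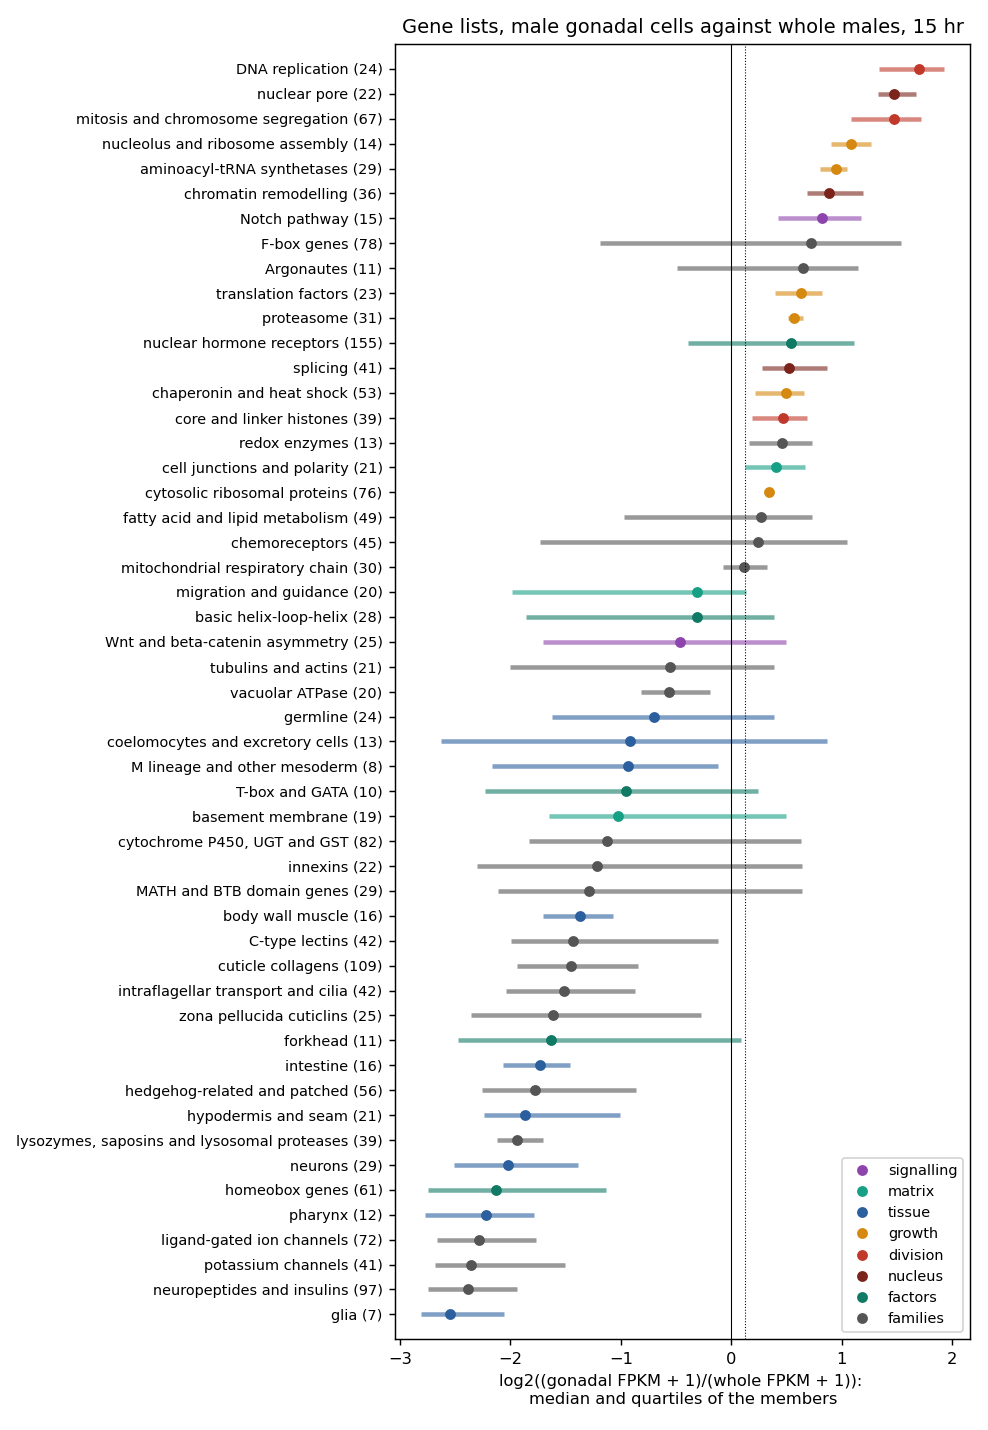
Median (point) and quartiles (bar) of the log2 ratio over the members past 5 FPKM of lists with at least 7 of them, coloured by the kind of list. The lists of somatic gonad regulators, reporter genes and sex determination are not shown. The number of members is in parentheses, and the dotted line is the median of all genes, 0.12. Lists of replication, mitosis and nuclear pores lie at medians of 1.47 to 1.70, and lists of neurons, glia, channels and neuropeptides at -2.02 or below.

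In the Notch pathway, which specifies cells of the gonad and acts on the germ line, 13 of 15 genes were higher in gonadal cells (median 0.82). Called genes numbered 2, both enriched (13.3%, against 3.48% of all genes). These were *arg-1*, a DSL-type ligand (31.3 FPKM in gonadal cells and 1.90 in whole males, 3.48), and *glp-1*, a Notch receptor best known from the germ line (141 and 16, 3.06). The nuclear effectors *lag-1* (0.99) and *sel-8* (0.81) and the γ-secretase gene *aph-2* (0.91) were higher without a call. The Wnt list held 25 genes past the floor, of which 12 were higher and 13 lower, 9 of the latter at least 2-fold. Besides *dsh-2* and *sys-1*, the genes of the intracellular components *wrm-1* (0.91), *mig-5* (0.78), *apr-1* (0.76) and *pop-1* were higher, whereas *lit-1* (-0.46), *dsh-1* (-0.47) and *axl-1* (-1.25) were lower. The 4 secreted Wnt ligand genes past the floor were depleted: *egl-20* (3.76 and 39.7 FPKM, -3.1), *cwn-2* (8.83 and 77.6, -3.0), *cwn-1* (15.5 and 120, -2.88) and *lin-44* (5.61 and 34.0, -2.40). The β-catenin gene *bar-1*, which acts in the canonical pathway, was depleted as well (6.17 and 57.3, -3.02). The median of the list was -0.46, with 1 enriched (4.0%) and 5 depleted, a share of 20% that is close to the 19.1% of all genes.

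Of 19 genes of basement membranes and their receptors, 1 was enriched (5.26%, against 3.48% of all genes), 2 were depleted (10.5%, against 19.1%) and 10 were at least 2-fold lower. *lam-3*, which encodes a laminin α chain, had 48.1 FPKM in gonadal cells and 1.58 in whole males (4.25), and *epi-1*, the gene of the other laminin α chain, 24.1 and 94.4 (-1.92). The shared β and γ chain genes *lam-1* (-0.65) and *lam-2* (-0.38) lay between them. The integrin α gene *ina-1* (212 and 81.6, 1.37), the discoidin receptor gene *ddr-2* (1.06) and the dystroglycan gene *dgn-1* (0.95) were higher in gonadal cells, whereas the type IV collagen genes *emb-9* (-1.03) and *let-2* (-1.50) and the perlecan gene *unc-52* (-1.44) were lower, and *ddr-1* and the agrin gene *agr-1* were both depleted (-2.93 each).

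Of 20 guidance and migration genes 13 were lower and 5 depleted (25%, against 19.1% of all genes). The secreted cue genes *unc-6* (netrin; 25.9 and 157 FPKM, -2.56), *slt-1* (Slit; 3.81 and 30.6, -2.71) and *unc-129* (a TGF-β family ligand; 3.96 and 37.6, -2.96) were depleted, as were the plexin receptor gene *plx-2* (-2.04) and the ADAMTS protease gene *mig-17* (1.01 and 11.2, -2.61). The netrin receptor gene *unc-40* (142 and 165 FPKM, -0.21), the Robo gene *sax-3* (109 and 162, -0.56) and the ephrin receptor gene *vab-1* (185 and 168, 0.13) were expressed at 100 FPKM or more in gonadal cells. No gene of the list was enriched, and its highest ratio was that of the plexin gene *plx-1* (0.70). Of 21 genes of junctions and polarity 17 were higher and none was called, with the PAR-2 gene *par-2* (49.9 and 14 FPKM, 1.76) and the cadherin gene *cdh-3* (1.59) the highest.

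Gap junction genes were called in both directions. *inx-9* (122.7 FPKM in gonadal cells and 4.51 in whole males, 4.49) and *inx-8* (95.2 and 4.08, 4.24), which encode innexins of the somatic gonad, were enriched (9.09%, against 3.48% of all genes). *inx-11* (1.48) and *inx-5* (1.39) were at least 2-fold higher, and 7 of 22 innexins were depleted, among them the neuronal and muscle genes *unc-7* (-2.97) and *unc-9* (-2.89) and *inx-3* (-2.95). The 7 depleted genes were 31.8% of the list, against 19.1% of all genes. The list's median was -1.22, and 0.25 at a floor of 20 FPKM.

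Homeobox genes, many of which specify neurons, were mostly low: 36 of 61 were depleted (59.0%, against 19.1% of all genes past the floor), with a median of -2.13. The lowest were *ceh-12* (6.27 and 87.1 FPKM, -3.60), *tab-1* (0.216 and 13.3, -3.56), *unc-4* (6.70 and 85.7, -3.49) and *ceh-6* (6.59 and 80.1, -3.42); *unc-4* and *ceh-12* act in motor neurons and *ceh-6* in the excretory cell. *unc-62*, a Meis cofactor, had 53.9 and 230 FPKM (-2.08). *ceh-22* and *ceh-8* were the enriched members of that list (3.28%, close to the 3.48% of all genes), which does not hold C50H2.6. Of 11 forkhead genes *pes-1* and *fkh-6* were enriched (18.2%, against 3.48%) and 4 were depleted (36.4%, against 19.1%).

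Nuclear hormone receptors had few depleted members: 104 of 155 were higher in gonadal cells (median 0.54), 9 were enriched (5.81%, against 3.48% of all genes) and 2 depleted (1.29%, against 19.1%). With no floor the median over the 283 receptors in the table was -0.064. *sex-1*, a receptor that counts X chromosomes in the embryo, had 55 and 3.87 FPKM (3.52), and *nhr-67*, a Tailless-type receptor that acts in the linker cell and in the anchor cell, 61.6 and 8.21 (2.76). The others ranged from 2.05 for *nhr-60* to 2.56 for *nhr-282*, all at 30.2 FPKM or less. The lowest was *unc-55*, a receptor of motor neurons (11.3 and 101 FPKM, -3.06). Among bHLH genes, *lin-32*, the Atonal-type proneural factor, was the 1 enriched member (3.57%, close to the 3.48% of all genes), with 205 and 16.1 FPKM (3.59). Of the 28 bHLH genes 7 were depleted (25%, against 19.1% of all genes), including *hlh-32* (-3.45), *hlh-13* (-3.41) and *hlh-1*, the MyoD gene of body wall muscle (4.79 and 36.1, -2.68). Of 10 T-box and GATA genes past the floor, *tbx-9* was enriched (15.9 and 0.977, 3.1), a share of 10% against 3.48% of all genes. *tbx-2*, *elt-3*, *mab-9* and *elt-1* were depleted (40%, against 19.1%).

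Of 14 sex determination and related genes past the floor 10 were higher in gonadal cells, with a median of 0.91. *sdc-3*, a zinc finger gene of sex determination and dosage compensation, was the 1 called (125 and 29.4 FPKM, 2.05), an enriched share of 7.14% against 3.48% of all genes. *sdc-2* (1.64), *fem-2* (1.57), *sdc-1* (1.13) and *fem-1* (1.08) were at least 2-fold higher. The genes *tra-3* (0.86), *fem-3* (0.67) and *cul-2* (0.56) were higher by less. The 4 lower members were *her-1*, the secreted male signal (4.56 and 12.3, -1.25), and the DM domain genes *dmd-4* (5.85 and 15.5, -1.27), *dmd-6* (24.6 and 45.2, -0.85) and *dmd-7* (88.2 and 94.4, -0.10). Of the other DM domain genes *mab-3*, *dmd-3*, *dmd-5* and *mab-23* were under the floor.

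Markers of other tissues were lower in gonadal cells but not absent. Of the markers of muscle, pharynx, intestine, hypodermis, neurons, glia, coelomocytes, the excretory cell and other mesoderm that passed the floor and were not on the gonad list, 107 were lower and 12 higher, 49 were depleted (41.2%, against 19.1% of all genes) and 3 were enriched (2.52%, against 3.48%), and none was listed at 0 in gonadal cells. Their median ratio was -1.83, and the median of each marker's gonadal FPKM as a share of its whole-male FPKM was 26.4%. In hermaphrodites at 15 hr that share was 15.4% and in males at 9.5 hr 24.4%, and 101 of these markers had a lower ratio in hermaphrodites than in males of the same age. How far this residual level bears on the ratios of other genes was not tested. The 3 enriched markers were *arg-1*, the chloride channel gene *clh-3* (12.4 and 2.30 FPKM, 2.02) and *che-14*, a Dispatched-like gene of epithelia (58.6 and 13.1, 2.08).

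Genes of neurons were among the lowest. Of 29 neuron markers 15 were depleted (51.7%, against 19.1% of all genes) and 27 lower, with a median of -2.02. *unc-46* and *unc-47*, genes of GABA neurons, had 3.64 and 73.5 FPKM (-4.0) and 6.72 and 69.4 (-3.19), and the acetylcholine genes *unc-17* (-3.21) and *cho-1* (-2.91) were similar. The synaptic genes *snt-1* (34.5 and 204, -2.53) and *rab-3* (26.9 and 137, -2.30) were lower but not near 0. Of 97 neuropeptide and insulin genes 70 were depleted (72.2%, against 19.1%; median -2.39), down to *ins-28* (5.21 and 127, -4.36) and *daf-28* (1.74 and 43.8, -4.03), and a single one was enriched, the insulin gene *ins-2* (25.397 and 1.39, 3.46).

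Genes of ion channels were low as well. Ligand-gated channels were depleted in 48 of 72 cases (66.7%, against 19.1% of all genes; median -2.28) with none enriched, the lowest being *lgc-23* (0.947 and 30.3 FPKM, -4.01). Potassium channels were depleted in 27 of 41 cases (65.9%; median -2.36), with 3 enriched (7.32%, against 3.48%): *irk-2*, an inward rectifier (119.02 and 7.32, 3.85), and the TWK-family channel genes *twk-5* (67.7 and 8.37, 2.87) and *twk-22* (32.1 and 5.86, 2.27). Cilium and intraflagellar transport genes had a median of -1.52, with 12 of 42 depleted (28.6%), and glial markers -2.55, with 5 of 7 depleted (71.4%), among them *vap-1* (1.90 and 25.26, -3.18) and *hlh-17* (3.86 and 27.4, -2.55).

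Muscle markers were lower throughout, by less. All 16 body wall muscle genes were lower, with a median of -1.37, but only *hlh-1* and *unc-98* (-2.66) were called, a share of 12.5% depleted against 19.1% of all genes. The most abundant, *pat-10* (237 and 334 FPKM, -0.50), *mlc-2* (218 and 374, -0.78) and the myosin gene *unc-54* (140 and 256, -0.87), stayed above 100 FPKM in gonadal cells. Of 12 pharynx markers 11 were lower and 7 depleted (58.3%), with a median of -2.22, and the exception was *ceh-22*. The lowest included the gland genes *phat-5* (5.23 and 78.0, -3.67) and *phat-3* (-3.12).

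Epidermal and gut genes lay between these. Hypodermis and seam markers had a median of -1.87, with 8 of 21 depleted (38.1%, against 19.1% of all genes), including the cuticle collagen genes *dpy-3* (-2.41) and *dpy-10* (-2.32) and the GATA factor *elt-1* (11.5 and 77.9, -2.65). Of 109 collagen genes 22 were depleted, a share of 20.2% that is close to the 19.1% of all genes, and 75 were at least 2-fold lower (median -1.45). *col-63* (32.5 and 1.59 FPKM, 3.69), *col-181* (44.4 and 2.92, 3.53), *col-101* (42.2 and 2.89, 3.47) and *col-124* (20.2 and 1.74, 2.95) were enriched, a share of 3.67% that is close to the 3.48% of all genes. Intestinal markers had a median of -1.73, with 5 of 16 depleted (31.2%), and the list of lysozymes, saposins and lysosomal proteases was lower in 39 of 39 members (median -1.94, range -3.34 to -1.02), of which 13 were depleted (33.3%).

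Hedgehog-related and Patched-related genes were depleted in 26 of 56 cases (46.4%, against 19.1% of all genes), with a median of -1.77. Enriched were 2 Patched-related genes, *ptr-8* (91.4 and 15.3 FPKM, 2.5) and *ptr-12* (74.4 and 17.6, 2.02), a share of 3.57% that is close to the 3.48% of all genes. Zona pellucida cuticlins were depleted in 11 of 25 cases (44.0%) and C-type lectins in 11 of 42 (26.2%). Detoxification genes of the cytochrome P450, UGT and GST families were depleted in 13 of 82 cases, a share of 15.9% that is below that of all genes. *cyp-34A6* (31.8 and 2.74, 3.13) and *cyp-13A2* (20.1 and 3.52, 2.22) were enriched (2.44%, against 3.48% of all genes).

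The germ line, whose precursors Z2 and Z3 lie between Z1 and Z4, was read from 24 markers past the floor, with a median of -0.70, 5 depleted (20.8%, close to the 19.1% of all genes) and none enriched. At a floor of 20 FPKM the median was 0.35. The P-granule genes *pgl-1* (9.09 FPKM in gonadal cells and 44.0 in whole males, -2.16), *pgl-3* (-2.14) and *deps-1* (-2.44) and the Piwi gene *prg-2* (3.51 and 29.8, -2.77) were depleted. The members at the top, *mes-4* (135 and 34.9, 1.92), *mes-2* (1.77) and *mes-6* (1.55), encode chromatin regulators that are also on the chromatin list. Among Argonautes *sago-1*, a secondary Argonaute of RNA interference, was enriched (89.7 and 16.7, 2.35).

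F-box genes, a family of substrate adaptors of ubiquitin ligases that has expanded in nematodes, showed calls in both directions. The table lists 357 of them, 78 passed the floor, 12 were enriched (15.4%, against 3.48% of all genes past the floor) and 10 depleted (12.8%, against 19.1%), with a median of 0.72. With no floor the median over all 357 was -0.032. *fbxc-40* (106 and 7.0 FPKM, 3.74), *fbxc-42* (10.5 and 0.276, 3.17) and *fbxc-39* (22.5 and 1.90, 3.02) are neighbours on chromosome II (986010 to 992629), and *fbxb-7* (24.4 and 1.09, 3.61) and *fbxa-69* (35.6 and 3.02, 3.19) were also enriched. *fbxc-43* (1.04 and 13.1, -2.80) and *fbxa-210* (1.74 and 15.3, -2.57) were the lowest. Members of this family are similar in sequence, which makes single values uncertain.

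Chromosomes contributed unequally. The X held 15.6% of genes past the floor, 22.3% of enriched genes and 27.1% of depleted genes, and its median ratio of -1.25 was the lowest of any chromosome. Chromosome II held 16.7% of genes and 22% of enriched genes. Chromosomes I and III were under-represented among depleted genes, with 10.1% and 10.4% of them against 16.9% and 16.7% of all genes. Of X-linked genes past the floor 33.2% were depleted, against 11.5% on chromosome I. Both groups were XX animals of 1 strain, and no test was made of these shares.

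**Figure D4:**
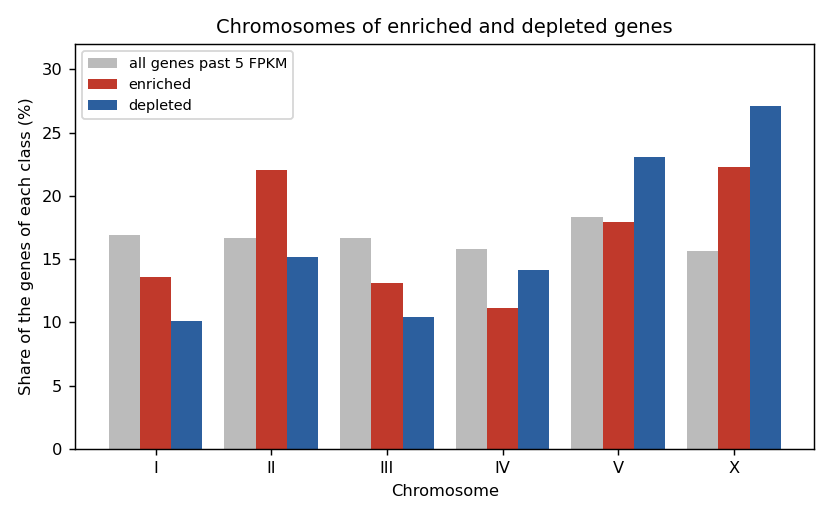
Share of genes on each chromosome (%) among all 11881 genes past 5 FPKM (grey), the 413 enriched genes and the 2268 depleted genes. The X bars are the highest of the enriched (22.3%) and depleted (27.1%) series, against 15.6% of all genes.

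RefSeq names and biotypes matched 11236 of the 11881 genes, and pseudogenes were 15 of 413 enriched genes (3.63%), 9 of 2268 depleted genes (0.397%) and 0.816% of all genes past the floor.

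Hermaphrodite Z1/Z4 daughters of the same age gave 445 enriched (3.68%) and 3254 depleted (26.9%) of 12102 genes past the floor. The 223 genes enriched in both sexes were 54% of the male list and 50.1% of the hermaphrodite list, and the 1988 depleted in both were 87.7% and 61.1%. The male-enriched list had a median ratio of 2.57 in males and of 2.12 in hermaphrodites, where 378 of the 413 were above 0. The 2 comparisons share no samples. The leading genes were high in both: *ckb-3* had a ratio of 3.82 in hermaphrodites, *inx-9* 3.92, *inx-8* 3.87, *lam-3* 3.81, *lin-32* 3.24, *sex-1* 3.83 and *nhr-67* 3.31.

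Other genes had a higher ratio in males than in hermaphrodites; none of these differences could be tested with pooled values. *glp-1* had 141 and 16 FPKM in males (3.06) and a ratio of -0.44 in hermaphrodites, and *arg-1* 3.48 and -0.73. The hermaphrodite values of *arg-1* were 0.0725 FPKM in gonadal cells and 0.779 in whole animals, both under the floor. *egl-5* stood at 0.49 in males and -4.0 in hermaphrodites, *hlh-3* at 0.39 and -2.27, and *tra-1* at 0.96 and -0.70. C02B4.3 had 72.1 and 0.283 FPKM in males but 0.716 and 1.28 in hermaphrodites. Likewise C49F5.5 had 54.3 and 1.07 FPKM in males and was listed at 0 in hermaphrodite gonadal cells, and F14F8.14, at 58 FPKM in male gonadal cells, was listed at 0 in the other 3 groups of this age. At the opposite end, *set-32*, a gene of the SET domain family, had 1.60 and 7.86 FPKM in males (-1.77) and 63.4 and 11.8 in hermaphrodites (2.33), and VZK822L.2 had 0.871 and 19.3 in males (-3.44) and 38.4 and 13.1 in hermaphrodites (1.49).

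**Figure D5:**
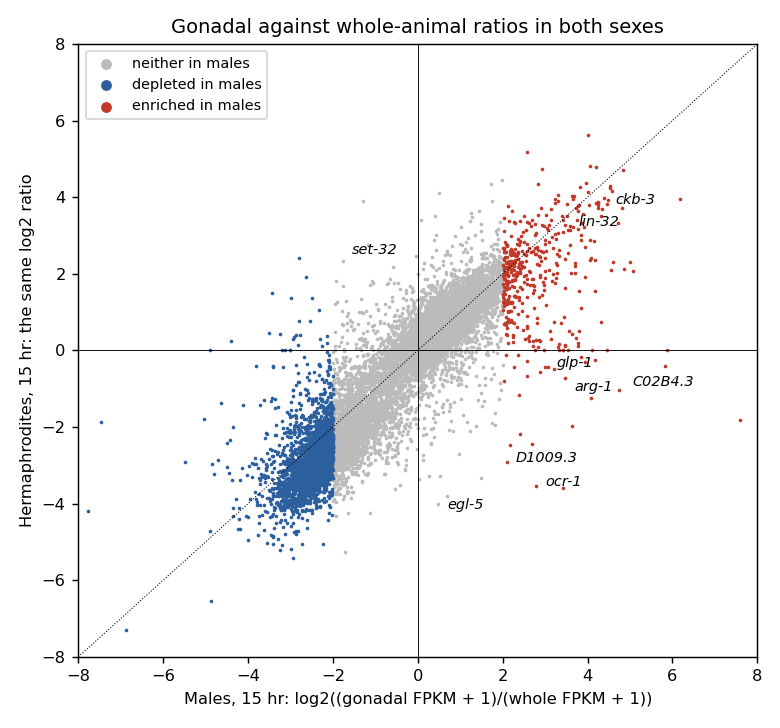
The log2 ratio of gonadal to whole-animal FPKM + 1 in males (x axis) and hermaphrodites (y axis) at 15 hr for the 11881 genes past 5 FPKM in males, coloured by the call in males. Most enriched genes lie in the upper right, while *glp-1*, *arg-1*, C02B4.3, D1009.3 and *ocr-1* lie below 0 on the hermaphrodite axis.

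Males at 9.5 hr, before the division of Z1 and Z4, were processed in a separate run and gave 471 enriched (3.94%) and 1985 depleted (16.6%) of 11969 genes. The 189 genes enriched at both times were 45.8% of the 15 hr list and 40.1% of the 9.5 hr list, and 127 genes were enriched in all 3 comparisons. The median ratio of the 15 hr list was 1.77 at 9.5 hr, where 351 of 413 were above 0. *lin-32* had 0.67 FPKM in gonadal cells and 19.7 in whole males at 9.5 hr (-3.63), against 205 and 16.1 at 15 hr, and *mnm-2*, a zinc finger gene with 213 and 13.9 FPKM at 15 hr (3.85), had a ratio of -1.04 at 9.5 hr. *hlh-2* (-2.86 at 9.5 hr), *nhr-67* (-1.72), *lin-12* (-0.94) and *glp-1* (-1.08) were likewise below 0 at the earlier time. The replication list had a median of 0.55 and the mitosis list of 0.37 at 9.5 hr. Lower ratios at 15 hr were those of C42D4.3, now named *dbd-13* (5.11 at 9.5 hr and -0.51 at 15 hr), C36A4.10 (3.06 and -2.91) and the astacin protease gene *nas-6* (2.99 and -2.0). For C42D4.3 gonadal FPKM was 126 at 9.5 hr and 59.1 at 15 hr, and whole-male FPKM rose from 2.69 to 84.7. For C36A4.10 the gonadal values were 138 and 37.6 FPKM, and the whole-male value rose from 15.6 to 290. Differences between the times were not tested, and the separate runs cannot be told apart from the times.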

How the data were processed

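Libraries were made by the authors from RNA depleted of ribosomal RNA, with TruSeq reagents and no poly-A selection, and single-end reads were mapped to ce10 (WS220); the submitters' processing notes name CASAVA 1.8, TopHat 1.4.1, Picard 1.56 and Cuffdiff 2.1.1, which was run 1 time per time point. The deposited FPKM values are Cuffdiff's, 1 pooled value for each group of 2 samples at 15 hr or 3 at 9.5 hr. The tables also hold the authors' fold changes, test statistics, p-values and significance calls, which were not used. The status mark was read only to find failed estimates and for the genes flagged for a closer look. Groups were named in the tables by strain and matched to the labels through the study's methods. There were 0 per-sample columns. An unnamed row, 0.236% of gonadal and 0.220% of whole-male FPKM, was left out, and 17 entries merge several genes.

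Ratios were computed with a pseudocount of 1 FPKM, a floor of 5 FPKM in the higher group and a call at an absolute log2 ratio of 2, in Python 3.11.15 with pandas 2.3.3 and numpy 2.4.6, with figures from matplotlib 3.10.9; the calls were tested on simulated data. No test, error or interval could be had. The genes named were drawn from the 15 highest and lowest ratios, the 10 highest gonadal FPKM values, the members of the gonad lists, the called members of the other lists, of which 2 to 6 are named where there are more, the 10 genes at each end of the differences from hermaphrodites and from 9.5 hr, and the strain genes; *mnm-2*, genes of runs and uncalled members of other lists were added after their values were seen. The members and the 54 gene lists were chosen with earlier results of these data known. Alternatives were other pseudocounts, floors, calls and scalings. Coordinates are those of the deposited table; RefSeq gave names and biotypes only. Promoter sequences were not used here.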

Additional observations from a re-analysis of the deposited data

Results flagged for a closer look

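In 4 genes measured above 0 in all 4 groups of this age, the gonadal value was at least 4-fold above the whole-animal value in males and at least 4-fold below it in hermaphrodites; no gene had the reverse pattern. Each group has 1 pooled value, so the difference between the sexes was not tested. *ocr-1*, a TRPV channel gene of sensory neurons, had 28.8 FPKM in male gonadal cells and 3.29 in whole males, but 7.55 and 98.2 in hermaphrodites, a difference of 6.33 between the log2 ratios (2.80 and -3.54). F35B3.3 had 21.1 and 2.43 FPKM in males and 0.439 and 6.85 in hermaphrodites, a difference of 5.13. D1009.3, now named *ensh-1*, had 130 and 29.7 FPKM in males and 2.13 and 22.4 in hermaphrodites, a difference of 5.0. R06A10.5 differed by 4.59, with 27.9 and 4.47 FPKM in males and 2.7 and 15.9 in hermaphrodites. Its entry in the male comparison carried Cuffdiff's status mark NOTEST, whereas *ocr-1*, F35B3.3 and D1009.3 were marked OK. The whole-animal values of males and hermaphrodites were 3.29 and 98.2 FPKM for *ocr-1*, 2.43 and 6.85 for F35B3.3, 4.47 and 15.9 for R06A10.5, and 29.7 and 22.4 for D1009.3, so that D1009.3 was the 1 gene of the 4 not lower in whole males.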

How the results depend on the processing

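No paired analysis was possible because each group is deposited as 1 pooled value, and for the same reason no replicate could be left out. The numbers of enriched and depleted genes, 413 and 2268, stayed within 1.5 times of these under a pseudocount of 0.1 FPKM (507 and 2779), floors of 1 FPKM or none (434 and 2334 in both), equal totals (379 and 2891), the median gene at 0 (335 and 2548), equal upper quartiles (291 and 2855), without merged and failed entries (412 and 2268), and without genes listed at 0 in either group, a setting chosen after seeing the data (386 and 2190). They moved further with a pseudocount of 5 FPKM (190 and 851), a floor of 20 FPKM for depleted genes (1437, with 286 enriched), and calls at an absolute ratio of 1 (2196 and 4070) or 3 (137 and 328). Of the named genes 290 of 594 moved by more than 1.5-fold with a pseudocount of 5 FPKM, and no called one changed sign under any of these settings. List medians changed sign for the respiratory chain with equal totals (-0.053), the median gene at 0 (-0.018) and equal upper quartiles (-0.17), for fatty acid metabolism (-0.052) and chemoreceptors (-0.13) with equal upper quartiles, for chemoreceptors with a floor of 1 FPKM (-0.29) or none (-0.15), for nuclear hormone receptors (-0.064) and F-box genes (-0.032) with no floor, and for germline markers (0.35), MATH and BTB genes (0.68) and innexins (0.25) with a floor of 20 FPKM. The floor removes members by their level, and the cause of the other changes was not tested.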

Other observations

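Genes of DNA repair and the damage checkpoint, a list put together after the values were seen, lay near the replication genes. Of 43 members in the table all passed the floor, 42 were higher in male gonadal cells (97.7%, against 52.9% of all genes), 34 at least 2-fold, and 10 were enriched (23.3%, against 3.48% of all genes), with a median ratio of 1.58, against 0.12 over all genes. The checkpoint kinase genes *atm-1* (118 and 16.4 FPKM, 2.78) and *chk-1* (172 and 31.6, 2.41), the nuclease and helicase gene *dna-2* (102 and 16.6, 2.55), the Fanconi anemia pathway genes *fncm-1* (2.55) and *fcd-2* (2.27), and the mismatch repair genes *msh-6* (2.24) and *msh-2* (2.01) were among those called. *chk-2*, known for its role in meiosis, was the 1 lower member (4.29 and 6.97, -0.59). The medians of the list were 1.54 in hermaphrodites of the same age and 0.58 in males at 9.5 hr.

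Name classes read after the values were seen gave further groups at the low end, where 19.1% of all genes were depleted. All 7 caenacin antimicrobial peptide genes (*cnc*) past the floor were depleted (median -3.20), as were 24 of 29 FMRFamide-like peptide genes (*flp*, 82.8%, median -2.49) and 17 of 30 globin-related genes (*glb*, 56.7%, median -2.15), with no member of these 3 classes higher in gonadal cells. Of 39 transthyretin-related genes (*ttr*, median -2.16) 22 were depleted (56.4%) and 2 were higher, with a range from -3.70 to 1.93. At the high end the DNA helicase genes (*mcm*, 6 genes, median 1.91) and the genes named *hcp* (5 genes, median 1.88) were higher in every member. The *hcp* genes include *hcp-6*, the gene of a condensin subunit. These are descriptions of pooled values and were not tested.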
